A study of Mus musculus with 9 samples.

Results

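The dual-specificity MAP kinase phosphatases measured here are the 10 genes *Dusp1*, *Dusp2*, *Dusp3*, *Dusp4*, *Dusp5*, *Dusp6*, *Dusp7*, *Dusp8*, *Dusp10*, and *Dusp16*, taken by gene symbol out of 50559 genes counted. All 10 were among the 16618 genes that passed the low-count filter and were tested. They were followed in sorted quadriceps cells of *mdx* mice, which lack dystrophin and serve as a model of Duchenne muscular dystrophy. The mice were 4.5 weeks old and of both sexes, and all had been treated for 7 days through the drinking water. The vehicle was MediDrop with sucralose, and the other two groups received in the same vehicle either the mineralocorticoid receptor antagonist spironolactone at 250 mg/L or the glucocorticoid prednisolone at 6.7 mg/L. A library was made from CD45+CD11b+ cells of 3 pooled mice, and 3 libraries stand for each group, so that a replicate is a pool and the spread between replicates is the spread between pools. All 3 groups are dystrophic, and no library of healthy muscle was analysed here.

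Every library had between 31469815 and 32943512 counts on genes, so that a level of 1 CPM is near 32 counts. CPM are counts relative to the library total, scaled here by TMM, a method that sets aside genes of extreme change. The genes that define myeloid cells were high in all 9 libraries, with *Ptprc* (CD45) at 604 ± 29.6, *Itgam* (CD11b) at 1237 ± 99.7, and the macrophage receptor *Csf1r* at 1597 ± 160 CPM (mean ± SD, n = 3) in vehicle. The summed level of 6 myeloid genes was between 7220.0 and 7558 CPM for vehicle, between 7098 and 7646 CPM for spironolactone, and between 6679.6 and 7466 CPM for prednisolone. Cells within the gate were not equal in all pools, since 7 neutrophil genes together reached 2850 CPM in vehicle library 3, against 654 and 992 CPM in the other two vehicle libraries. In bulk RNA, fewer cells of a type and less RNA per cell cannot be told apart, and this holds for each level given here.

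MAP kinases (ERK, JNK, and p38) relay growth, stress, and inflammatory signals once they are phosphorylated on a threonine and a tyrosine, and the dual-specificity phosphatases remove both phosphates and so switch the kinase off. Many of them are themselves transcribed in response to MAP kinase signals, which makes these feedback inhibitors. They fall into a nuclear, inducible group (*Dusp1*, *Dusp2*, *Dusp4*, *Dusp5*), a cytoplasmic, ERK-directed group (*Dusp6*, *Dusp7*), and a group directed at JNK and p38 (*Dusp8*, *Dusp10*, *Dusp16*). *Dusp3* encodes a small phosphatase without the docking domain that the others use to hold their kinase. In macrophages, the *Dusp1* product is a known brake on p38 and on cytokine production, and *Dusp1* is a known target of the glucocorticoid receptor in many cell types.

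What makes these genes one family is the catalytic signature of the phosphatase, in which a cysteine preceded by a histidine attacks the phosphate and an arginine binds it. The 24 coding bases of that signature are shown for all 10 genes, because they show what the family shares and where its members differ. They were read 5′ to 3′ on the coding strand from GENCODE transcripts on GRCm39, and capitals mark the codons of the histidine, the cysteine, and the arginine.
Dusp1: CATTGCcaggccggcatctccCGG
Dusp2: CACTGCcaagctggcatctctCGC
Dusp4: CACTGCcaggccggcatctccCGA
Dusp5: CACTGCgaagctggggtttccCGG
Dusp6: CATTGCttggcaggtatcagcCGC
Dusp7: CACTGCctagcaggcatcagcCGT
Dusp8: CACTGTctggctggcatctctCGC
Dusp10: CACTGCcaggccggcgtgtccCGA
Dusp16: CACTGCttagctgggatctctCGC
Dusp3: CATTGCcgcgagggctacagcCGC

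All the signatures are in coding exons. That of *Dusp1* is at chr17:26725566-26725589 on the minus strand, in exon 4 of 4, and begins at codon 257 of 367. *Dusp4* at chr8:35285587-35285610 on the plus strand had 22 of the 24 bases in common with *Dusp1*, *Dusp10* at chr1:183806490-183806513 on the plus strand had 20, and *Dusp2* at chr2:127179536-127179559 on the plus strand had 19. The fewest bases in common with *Dusp1* were found in *Dusp3*, which had 15, at chr11:101865728-101865751 on the minus strand. *Dusp3* also has the shortest protein, with 185 codons, against 663 for *Dusp8* and 660 for *Dusp16*. The remaining signatures had 16 to 18 bases in common with that of *Dusp1*, those of *Dusp5* at chr19:53529382-53529405, *Dusp6* at chr10:99101889-99101912, and *Dusp7* at chr9:106250873-106250896 on the plus strand, and those of *Dusp8* at chr7:141637070-141637093 and *Dusp16* at chr6:134697522-134697545 on the minus strand. The family is thus spread over 10 chromosomes, and none of its members is a neighbor of another.

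Transcript levels spanned a wide range. They were compared as TPM, a length-corrected share of all transcripts, in which all annotated exons of a gene set its length. *Dusp1* was far above the others, at 1948 ± 260 TPM (SD, n = 3) in vehicle. By its mean TPM it ranked 51 of 40303 genes. When the canonical transcript set its length, the value was 3254 ± 434. Such values, also written as TPM below, use canonical lengths for the 10 genes only. The total over all genes kept the lengths of all annotated exons. They thus compare the 10 genes with each other and are not strict shares of all transcripts. By canonical length it was followed by *Dusp6* at 190 ± 19.5 and *Dusp3* at 178 ± 15.5 TPM, which did not differ beyond their SD. Next came *Dusp2* at 120 ± 9.84, *Dusp5* at 109 ± 17.2, and *Dusp7* at 83.9 ± 15.2 TPM, of which *Dusp5* overlapped each of its neighbors within 1 SD of both. *Dusp16* at 23.6 ± 4.47 and *Dusp10* at 13.3 ± 0.491 TPM stood apart from each other, and *Dusp4* at 7.75 ± 3.16 and *Dusp8* at 3.97 ± 1.47 TPM again overlapped within 1 SD.

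**Figure D1:**
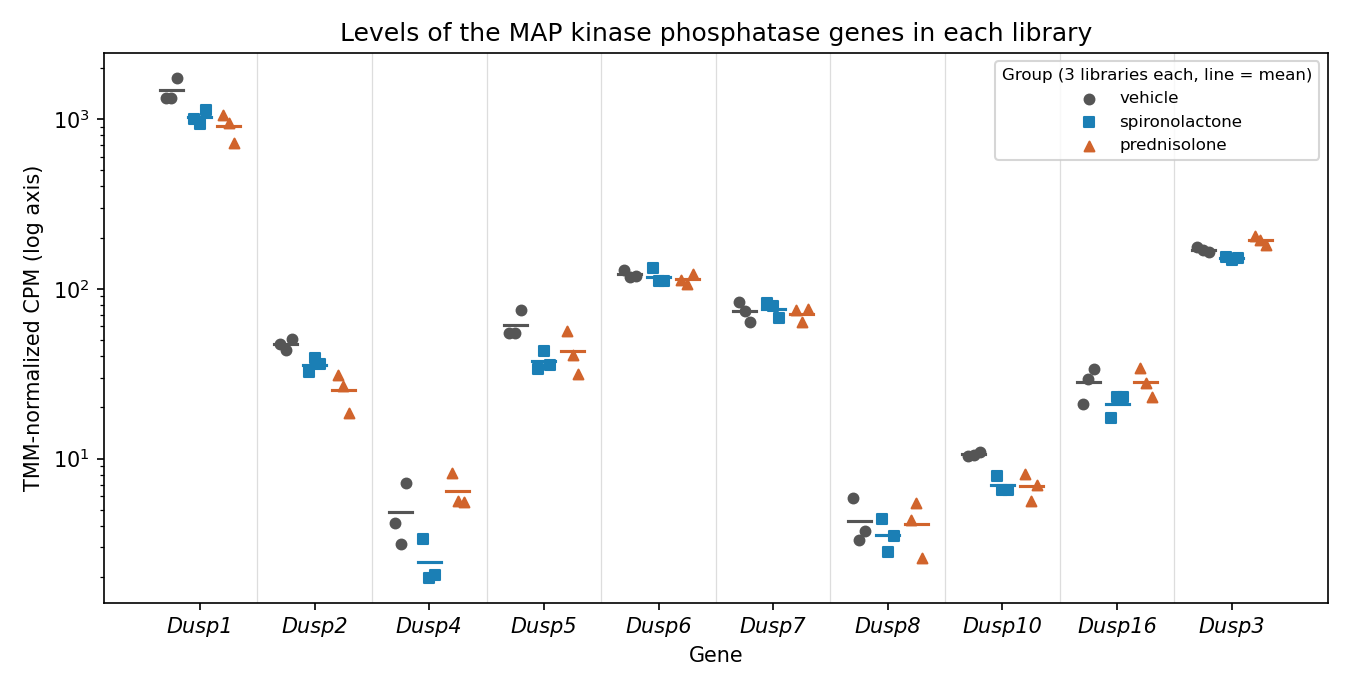
Level of each of the 10 genes (x axis) in each library, in TMM-normalized CPM on a log axis; circles, squares, and triangles are vehicle, spironolactone, and prednisolone libraries (3 each), and the short line is the group mean. *Dusp1*, *Dusp2*, and *Dusp10* are the genes whose treated libraries all sit below the vehicle libraries.

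*Dusp1* also made up most of the family's transcripts. Its share of the per-length total of the 10 genes averaged 81.6% ± 1.96 with vehicle, 78.4% ± 2.18 with spironolactone, and 75.4% ± 2.5 with prednisolone (SD, n = 3). The lengths were those of the canonical transcripts, and shares by all annotated exons, which would differ, were not computed. The vehicle libraries ranged from 80.02% to 83.8% and the prednisolone libraries from 72.5% to 76.9%, so that these did not overlap, while the spironolactone libraries (76.7% to 80.8%) overlapped both. Of the others, *Dusp3* took 4.52% ± 0.683 with vehicle, 5.53% ± 0.373 with spironolactone, and 7.69% ± 0.804 with prednisolone, and the 3 ranges did not overlap. *Dusp16* took 0.594% ± 0.103, 0.621% ± 0.105, and 0.899% ± 0.0437, respectively. Shares add up to the whole, so that a lower share of *Dusp1* by itself raises those of the other genes.

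**Figure D2:**
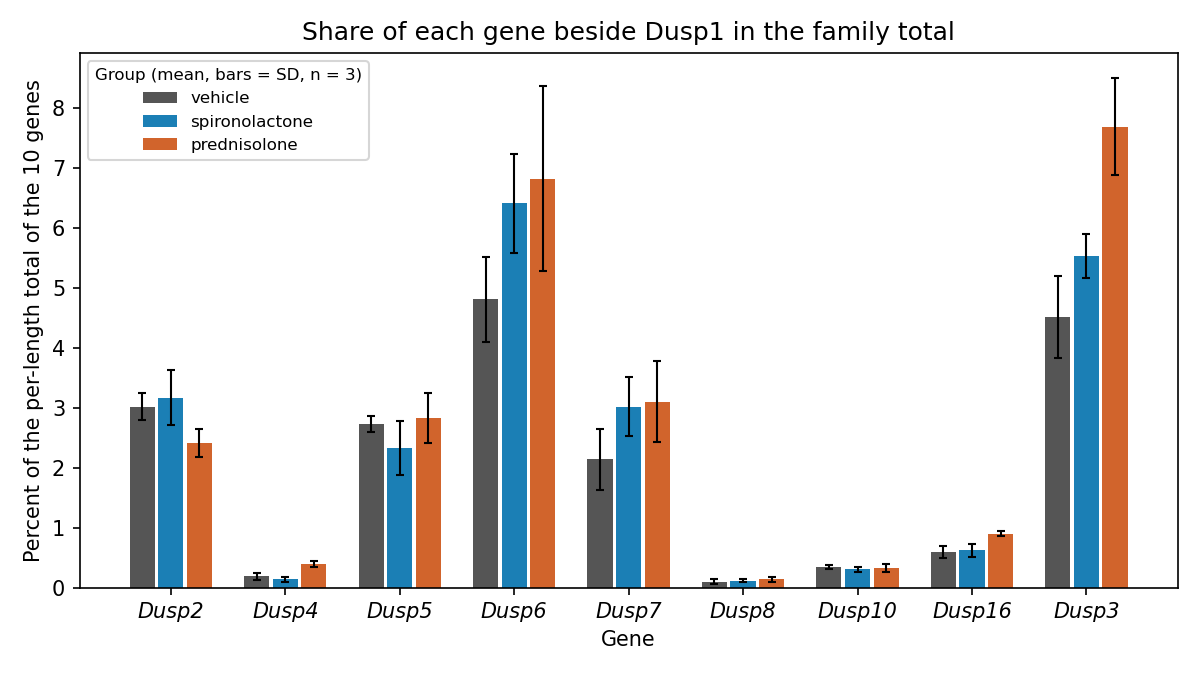
Share of each gene other than *Dusp1* (x axis) in the total of the 10 genes per canonical transcript length (y axis, percent). Bars are group means with SD (n = 3 libraries). *Dusp3* had 4.52% in vehicle and 7.69% in prednisolone, with *Dusp8* the lowest bar in vehicle at 0.1%.

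The first comparison asked which of these phosphatases were altered by the glucocorticoid. With prednisolone, 2 of the 10 genes fell, *Dusp1* by 38.4% and *Dusp2* by 46.0%, and none rose. Among all genes tested, 1.76% passed the same threshold in this comparison in either direction, and 0.758% passed it as lower. The first share is 293 genes, a count that ran from 69 without prednisolone library 2 to 826 without vehicle library 1, with 119 to 179 without any 1 of the other vehicle and prednisolone libraries. The threshold was an adjusted *P* under 0.05 in edgeR's quasi-likelihood test, two-sided, with Benjamini-Hochberg adjustment over 16618 genes. In all, 7 of the 10 fitted changes were below 0, as were 52.2% of all genes, and the median log2 fold change of the family was -0.08, against -0.014 for the tested genes together. Without adjustment, 5 of the 10 had a *P* under 0.05, against 14.2% of all genes, and 4 of these were lower, against 7.07%. In 4 of the 10 the prednisolone and vehicle libraries did not overlap, against 19.7%, and in 3 of these they were lower, against 9.27%. Both genes that fell belong to the nuclear, inducible group.

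*Dusp1* was measured in vehicle libraries 1 to 3 at 1336, 1334, and 1741 CPM, in spironolactone libraries at 997, 927, and 1133 CPM, and in prednisolone libraries at 1056, 940.1, and 723 CPM. Every treated library lay below every vehicle library, and vehicle library 3 was the highest of the 9. The means were 1470.2 ± 234, 1019 ± 104, and 906 ± 169 CPM (SD, n = 3). The log2 fold change with prednisolone was -0.70 ± 0.15 (SE), with a 95% interval from -1.01 to -0.38 and an adjusted *P* of 0.0295. The adjusted *P* lay between 3.19e-07 and 0.0563 over 10 other ways of testing, 8 of which kept the call.

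The call of *Dusp1* rested on more than one of its libraries. It was kept in 5 of the 9 fits that each left out 1 library. It was lost without vehicle library 2 (log2 fold change -0.76, adjusted *P* = 0.0527), vehicle library 3 (-0.56, 0.103), prednisolone library 2 (-0.72, 0.125), or prednisolone library 3 (-0.56, 0.107). The direction was the same in all 9. Vehicle library 3 was also the one with the most neutrophil RNA, as given above, and the part of neutrophils in the *Dusp1* level was not tested beyond leaving out this library.

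*Dusp2* encodes a nuclear phosphatase typical of activated leukocytes. Its levels were 47.2, 43.8, and 50.6 CPM in vehicle, 32.3, 39.1, and 35.9 CPM in spironolactone, and 31.0, 26.8, and 18.7 CPM in prednisolone libraries. The groups formed 3 steps without any overlap, vehicle highest and prednisolone lowest. With prednisolone the log2 fold change was -0.89 ± 0.15 (SE; 95% interval from -1.22 to -0.56; adjusted *P* = 0.0123). The call held in 10 of 10 alternatives, with adjusted *P* from 8.02e-11 to 0.0307, and in 8 of the 9 fits without 1 library. Without prednisolone library 2, the log2 fold change was -0.93 with an adjusted *P* of 0.0609.

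The remaining nuclear phosphatases did not pass the threshold with prednisolone. *Dusp5*, which acts on ERK in the nucleus, had 55.1, 54.9, and 74.7 CPM in vehicle, 33.7, 43.0, and 35.5 CPM in spironolactone, and 56.5, 40.5, and 31.4 CPM in prednisolone libraries. Its prednisolone libraries were the most scattered and overlapped the vehicle range, and the log2 fold change was -0.52 ± 0.20 (unadjusted *P* = 0.0261, adjusted *P* = 0.265). Without prednisolone library 3 it was -0.34 (adjusted *P* = 0.514), and edgeR without a filter called it lower (-0.51, 0.00055). *Dusp4*, a nuclear phosphatase close to *Dusp1* in sequence, was low in all libraries, at 4.20, 3.15, and 7.20 CPM in vehicle and 8.20, 5.59, and 5.58 CPM in prednisolone libraries. These ranges overlapped, and the log2 fold change of 0.41 ± 0.30 had an adjusted *P* of 0.596. It was 0.18 without vehicle library 2, 0.21 without prednisolone library 1, and 0.82 without vehicle library 3.

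**Figure D3:**
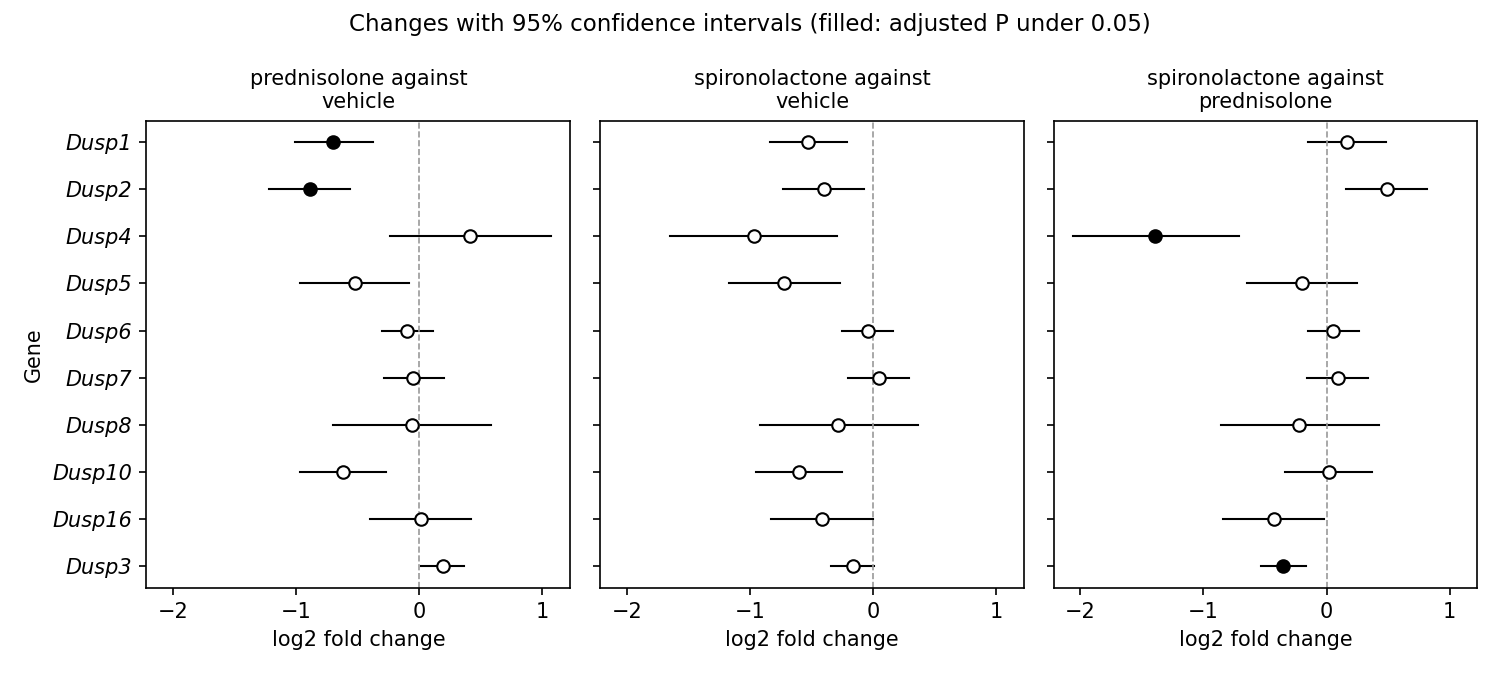
Fitted log2 fold change (x axis) of each gene (y axis) in the 3 comparisons, with 95% confidence intervals from edgeR; filled points have an adjusted P under 0.05. Filled points are *Dusp1* and *Dusp2* for prednisolone against vehicle and *Dusp3* and *Dusp4* for spironolactone against prednisolone, while the middle panel has none.

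The second comparison asked the same of the mineralocorticoid receptor antagonist. With spironolactone, 0 of the 10 genes passed the adjusted threshold in edgeR, and 0.0181% of all genes tested did, which is 3 genes. That count ran from 0 without vehicle library 3, spironolactone library 3, or prednisolone library 2 to 34 without spironolactone library 2. At an unadjusted *P* under 0.05, 6 of the 10 were lower, against 4.07% of all genes that were lower and 9.29% that differed either way at that level, and none was higher. In 5 of the 10, every spironolactone library lay below every vehicle library, against 6.50% of all genes. Of the fitted changes, 9 of 10 were below 0, as were 50.0% of all genes, and the family median was -0.41, against 0 over all genes. The genes of the family are not independent of each other so that these counts describe the family and were not tested as such.

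By size, the genes lower with spironolactone were *Dusp4* (log2 fold change -0.97 ± 0.32, unadjusted *P* = 0.00843, adjusted *P* = 0.308), *Dusp5* (-0.72 ± 0.20, 0.00503, 0.254), *Dusp10* (-0.60 ± 0.16, 0.00254, 0.189), *Dusp1* (-0.53 ± 0.15, 0.00301, 0.208), *Dusp16* (-0.41 ± 0.19, 0.0481, 0.534), and *Dusp2* (-0.40 ± 0.15, 0.0202, 0.429). The calls differed between tools and filters. DESeq2 on all 9 libraries called 3 of the 10 lower, *Dusp1* (adjusted *P* = 0.0228), *Dusp5* (0.0140), and *Dusp10* (0.0460), and 1.67% of all genes it tested in either direction, while limma-voom called 0 of the 10 and 0% of all genes. With edgeR and no low-count filter, 4 of the 10 were called (*Dusp1*, *Dusp2*, *Dusp4*, and *Dusp5*) and 1.78% of all genes. Among all 10 alternatives, adjusted *P* values ran from 0.000445 to 0.274 for *Dusp1*, from 1.07e-07 to 0.454 for *Dusp5*, and from 0.0460 to 0.248 for *Dusp10*. Without vehicle library 3, the fitted change of *Dusp4* was -0.58, that of *Dusp16* was -0.26, that of *Dusp1* was -0.39, and that of *Dusp5* was -0.56, whereas that of *Dusp10* was -0.58.

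The same 3 vehicle libraries serve as controls for both drugs, so that a high vehicle library lowers both fold changes at once. In 3 of the 10 genes, all 6 treated libraries lay below all 3 vehicle libraries, and this was so for 1.52% of all genes tested. These were *Dusp1*, *Dusp2*, and *Dusp10*. For *Dusp1*, the fitted change was -0.70 with prednisolone and -0.53 with spironolactone, and for *Dusp10* it was -0.62 and -0.60. For *Dusp5* the order was the opposite, with -0.52 and -0.72. The direct difference of *Dusp5* between the drugs was -0.20 ± 0.20 (SE, adjusted *P* = 0.629), and it was 0.05 without prednisolone library 1.

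Because *Dusp1*, *Dusp2*, *Dusp5*, and *Dusp10* were lower at an unadjusted *P* under 0.05 with each drug, the 250 bases before the start of their canonical transcripts are shown. They were read from GRCm39 on the strand of the gene, 5′ to 3′, for *Dusp1* at chr17:26727494-26727743 (minus strand), *Dusp2* at chr2:127177707-127177956 (plus), *Dusp5* at chr19:53517282-53517531 (plus), and *Dusp10* at chr1:183765620-183765869 (plus). Capitals mark matches, on either strand, to motifs of transcription factors that act downstream of MAP kinases, cAMP, or the glucocorticoid receptor, or to that of NF-kB, a factor of inflammatory signalling.
Dusp1: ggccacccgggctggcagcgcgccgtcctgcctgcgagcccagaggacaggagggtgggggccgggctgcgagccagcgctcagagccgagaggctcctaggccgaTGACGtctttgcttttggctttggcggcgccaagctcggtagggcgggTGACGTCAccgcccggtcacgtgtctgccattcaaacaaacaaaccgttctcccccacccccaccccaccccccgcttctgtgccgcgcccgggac
Dusp2: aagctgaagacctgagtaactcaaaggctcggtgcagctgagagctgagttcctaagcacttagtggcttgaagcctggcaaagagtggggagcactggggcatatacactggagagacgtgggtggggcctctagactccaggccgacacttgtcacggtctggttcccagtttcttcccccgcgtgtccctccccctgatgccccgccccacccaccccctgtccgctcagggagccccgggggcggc
Dusp5: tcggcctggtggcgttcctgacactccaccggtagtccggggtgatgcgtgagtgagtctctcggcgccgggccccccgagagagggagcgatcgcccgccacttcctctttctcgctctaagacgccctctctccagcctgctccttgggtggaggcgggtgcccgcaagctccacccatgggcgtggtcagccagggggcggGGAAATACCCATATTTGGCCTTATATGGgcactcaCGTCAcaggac
Dusp10: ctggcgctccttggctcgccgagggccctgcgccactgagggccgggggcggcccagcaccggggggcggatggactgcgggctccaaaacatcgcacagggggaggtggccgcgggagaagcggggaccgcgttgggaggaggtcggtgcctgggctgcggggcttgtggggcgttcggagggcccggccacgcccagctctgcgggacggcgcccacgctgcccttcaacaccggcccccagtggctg

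The *Dusp1* promoter held a cAMP response element, TGACGTCA, that starts 96 bases before the transcript start, and a separate copy of its core, TGACG, at 144 bases. The full element was present in 1.70% of 21757 promoters of the same length and, within the family, also in *Dusp8*, where it occurred at 76 and 32 bases before the start. The core, which the full element contains on each strand, was present in 18.0% of all promoters and in *Dusp1*, *Dusp4*, *Dusp5*, and *Dusp8*. The *Dusp5* promoter held a pair of CArG boxes, the binding motif of serum response factor, at 38 and 28 bases before the start, as 1.40% of all promoters held at least 1. It also held an NF-kB motif (GGG, any 3 bases, TTCC) at 46 bases on the opposite strand, whose end overlaps the start of the first CArG box, so that the capitals run on, and this motif was present in 4.71% of all promoters.

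*Dusp2* and *Dusp10* held none of the letters searched. No member held the AP-1 motif TGANTCA (6.18% of all promoters) or the glucocorticoid receptor core AGAACA (14.3%) in this window. The full glucocorticoid response element, inverted copies of that core 3 bases apart, was found in 0% of the 21757 windows, so that this search is uninformative on it. A match is a description of the letters, and factor binding was not measured here.

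*Dusp6* and *Dusp7*, the cytoplasmic phosphatases that act on ERK, differed little between the groups. *Dusp6* had 129, 117, and 119 CPM in vehicle, 132, 111, and 111 CPM in spironolactone, and 113, 106, and 122 CPM in prednisolone libraries, with full overlap. Its log2 fold change was -0.10 ± 0.09 (95% interval from -0.30 to 0.11; adjusted *P* = 0.715) with prednisolone and -0.04 ± 0.09 (from -0.25 to 0.16; 0.941) with spironolactone. *Dusp7* had 83.4, 74.0, and 63.9 CPM in vehicle, 82.7, 78.7, and 67.1 CPM in spironolactone, and 75.0, 63.5, and 75.8 CPM in prednisolone libraries. Its log2 fold change was -0.05 ± 0.12 (from -0.29 to 0.20; 0.903) with prednisolone and 0.05 ± 0.12 (from -0.20 to 0.29; 0.951) with spironolactone. These intervals leave out the size of change measured for *Dusp2* with prednisolone, in either gene and for both drugs.

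Of the phosphatases directed at JNK and p38, *Dusp10* had the most even vehicle libraries, at 10.4, 10.5, and 10.9 CPM. Its spironolactone libraries had 7.88, 6.51, and 6.52 CPM and its prednisolone libraries 8.08, 5.62, and 6.95 CPM, all below vehicle and overlapping each other. With prednisolone the log2 fold change was -0.62 ± 0.16 (unadjusted *P* = 0.00203, adjusted *P* = 0.0762), and DESeq2 on all 9 libraries called it lower (adjusted *P* = 0.0194). The range over 10 alternatives was 0.0194 to 0.0975. DESeq2 called 4.64% of all genes it tested in this comparison.

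*Dusp16*, whose product shuttles between nucleus and cytoplasm, had 21.0, 29.4, and 33.9 CPM in vehicle, 17.3, 22.98, and 22.92 CPM in spironolactone, and 34.2, 27.8, and 23.05 CPM in prednisolone libraries. Vehicle and prednisolone covered the same range, with a log2 fold change of 0.01 ± 0.19 (adjusted *P* = 0.986). *Dusp8* was the lowest of the family per length. It had 5.87, 3.31, and 3.77 CPM in vehicle, 4.40, 2.81, and 3.48 CPM in spironolactone, and 4.34, 5.50, and 2.58 CPM in prednisolone libraries. All 3 groups overlapped, with a log2 fold change of -0.06 ± 0.30 (0.955) with prednisolone and -0.28 ± 0.30 (0.854) with spironolactone. The scatter of *Dusp8* and *Dusp4* between libraries of a group was the largest of the family, with a biological coefficient of variation of 0.257 and 0.263.

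*Dusp3* was the most even gene of the family, with a biological coefficient of variation of 0.0919, which 5.55% of all genes did not exceed. It had 176, 168, and 164 CPM in vehicle, 154, 148, and 151 CPM in spironolactone, and 203, 195, and 181 CPM in prednisolone libraries. The groups did not overlap, with prednisolone highest and spironolactone lowest, but neither drug passed the threshold against vehicle. The log2 fold change was 0.19 ± 0.08 (unadjusted *P* = 0.0397, adjusted *P* = 0.316) with prednisolone and -0.16 ± 0.08 (0.0648, 0.575) with spironolactone.

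The direct comparison of the drugs asked where they differed from each other. Here 2 of the 10 genes passed the threshold, *Dusp3* and *Dusp4*, both lower with spironolactone, and 5.17% of all genes tested passed it, 2.79% as lower with spironolactone and 2.38% as higher. The first share is 859 genes, a count that was 1898 without vehicle library 1, 412 and 270 without spironolactone libraries 2 and 3, and 304, 232, and 380 without prednisolone libraries 1 to 3. In 4 of the 10 genes the libraries of the drugs did not overlap, which was so for 30.3% of all genes, and in 3 of them spironolactone was the lower, against 15.2%. At an unadjusted *P* under 0.05, 4 passed, against 22.5%, and 3 of these were lower with spironolactone, against 11.1%. Of the fitted changes, 5 were below 0, against 46.6% of all genes. The family median was -0.09 and that of all genes 0.026.

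*Dusp4* had 3.35, 1.99, and 2.06 CPM in spironolactone libraries, from 106, 63, and 65 counts, and 8.20, 5.59, and 5.58 CPM in prednisolone libraries, from 270, 183, and 188 counts. Every spironolactone library was below every prednisolone library, and the vehicle libraries (3.15 to 7.20 CPM) reached into the prednisolone range and, at the low end, into the spironolactone range. The log2 fold change was -1.39 ± 0.31 (95% interval from -2.06 to -0.71; adjusted *P* = 0.0245). The call held in 10 of 10 alternatives, with adjusted *P* from 9.66e-07 to 0.0347, and in 5 of the 9 fits without 1 library. It was lost without spironolactone library 2 (log2 fold change -1.26, adjusted *P* = 0.0912), spironolactone library 3 (-1.27, 0.105), prednisolone library 1 (-1.18, 0.111), or prednisolone library 2 (-1.48, 0.0631).

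*Dusp3* was 21.5% lower with spironolactone than with prednisolone, a small difference between groups that were each narrow. The log2 fold change was -0.35 ± 0.08 (95% interval from -0.53 to -0.17; adjusted *P* = 0.0274). The call held in 10 of 10 alternatives, with adjusted *P* from 0.00117 to 0.0320, and in 5 of the 9 fits without 1 library. It was lost without spironolactone library 2 (log2 fold change -0.34, adjusted *P* = 0.0926), spironolactone library 3 (-0.35, 0.0933), prednisolone library 1 (-0.31, 0.114), or prednisolone library 2 (-0.34, 0.0974).

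**Figure D4:**
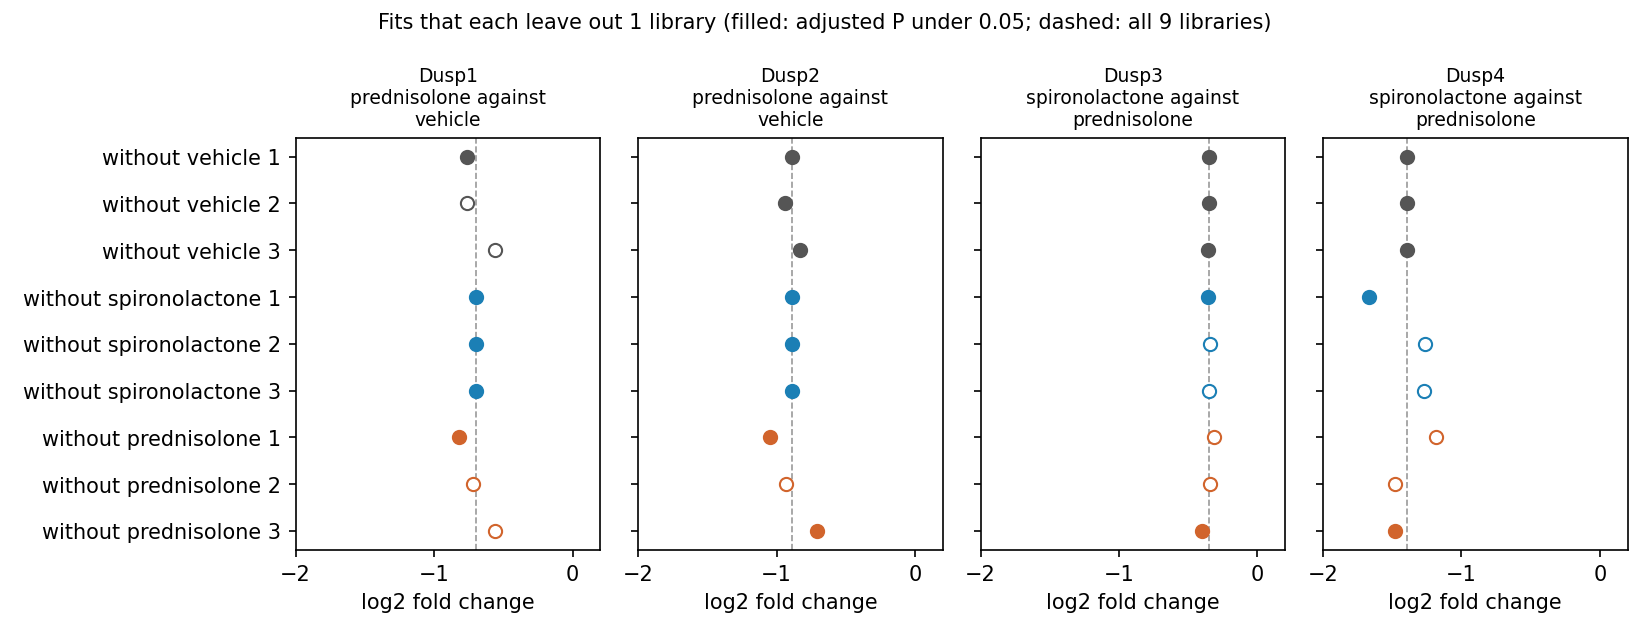
Fitted log2 fold change (x axis) of the 4 called genes when each of the 9 libraries (y axis) is left out of the fit; filled points have an adjusted P under 0.05, and the dashed line is the fit with all 9 libraries. All points stay below 0; *Dusp2* is filled in 8 fits, and *Dusp1*, *Dusp3*, and *Dusp4* are each filled in 5.

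Of the other genes, *Dusp2* was higher with spironolactone than with prednisolone in every library pair, with a log2 fold change of 0.49 ± 0.15 (95% interval from 0.16 to 0.82; unadjusted *P* = 0.00698, adjusted *P* = 0.0819). This change was 0.31 (adjusted *P* = 0.211) without prednisolone library 3 and 0.65 (0.0531) without prednisolone library 1. *Dusp2* was called in 3 of 10 alternatives, by DESeq2 on all 9 libraries (adjusted *P* = 0.039), by DESeq2 on 2 groups (0.0342), and by edgeR without a filter (0.0024), and the range was 0.0024 to 0.0929. DESeq2 on all 9 libraries called 10% of all genes it tested between the drugs. *Dusp16* was lower without overlap, at -0.43 ± 0.19 (0.0427, 0.204), and was called without a filter (adjusted *P* = 0.0112), where edgeR called 6.52% of all genes between the drugs and 3.43% with prednisolone. The *Dusp16* change was -0.27 (adjusted *P* = 0.523) without prednisolone library 1 and -0.31 (0.412) without spironolactone library 1. For *Dusp1*, the drugs differed by 0.17 ± 0.15 (from -0.15 to 0.48; adjusted *P* = 0.544), and for *Dusp10* by 0.02 ± 0.17 (from -0.34 to 0.37; 0.969). These intervals are wide, and equal effects of the drugs on *Dusp1* and *Dusp10* were not shown.

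Marker genes of other cells in the sorted pools also differed between the drugs, and their values are given because *Dusp3* and *Dusp4* were called in that comparison. The sum of 8 lymphocyte genes ranged from 29.0 to 36.5 CPM with spironolactone and from 11.7 to 18.1 CPM with prednisolone, and that of 5 erythroid genes from 186 to 305 and from 37.1 to 79.7 CPM. The sum of 6 endothelial genes ranged from 165 to 222 and from 113 to 136 CPM. The sum of 6 monocyte genes ranged from 1798 to 2121 and from 2638 to 3446 CPM, with fitted changes above 0 for 3 of these genes and below 0 for 3. Those below 0 had an unadjusted *P* under 0.05, as did 11.1% of all genes in that direction, and *F13a1* among them was called (-0.88 ± 0.14, adjusted *P* = 0.00358). Of 7 genes of F4/80hi macrophages, 6 had fitted changes below 0, against 46.6% of all genes. Of the 7, 2 were called lower with spironolactone, against 2.79% of all genes, *Lyve1* (-1.60 ± 0.34, adjusted *P* = 0.0338) and *Cd163* (-0.92 ± 0.23, 0.0448). *Itgam*, which encodes the CD11b of the sort gate, was itself lower with spironolactone than with prednisolone (-0.43 ± 0.11, 0.0353). No gene of these lists was at 0 in all 9 libraries, and their part in the levels of *Dusp3* and *Dusp4* was not tested.

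In vehicle, the lymphocyte genes summed to 19.8 to 24.1 CPM, above prednisolone and below spironolactone without overlap. The endothelial genes summed to 90.4 to 127 CPM and the erythroid genes to 70.2 to 135 CPM, and both were below spironolactone without overlap. The skeletal muscle genes (6) summed to 163 to 253 CPM with vehicle, 312 to 516 CPM with spironolactone, and 263 to 397 CPM with prednisolone, so that both drugs were above vehicle. The 7 neutrophil genes summed to 654 to 2850, 992 to 2063, and 747 to 946 CPM, and 6 fibro-adipogenic genes to 615 to 873, 806 to 1183, and 767 to 872 CPM. The monocyte genes summed to 1497 to 3077 CPM with vehicle, which overlapped both drugs. Dendritic genes (6) summed to 61.3 to 75.7, 72.1 to 127, and 83.5 to 107 CPM, and the F4/80hi macrophage genes to 1350.6 to 1717, 1371 to 1589.8, and 1552 to 1663 CPM. Within that last list, 6 of 7 genes had fitted changes above 0 with prednisolone against vehicle and none was called. Whether these differences bear on the lower *Dusp1* and *Dusp2* of treated libraries was not tested.

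For the other genes of the pathway, calls are those of edgeR with all 9 libraries, TMM, and the low-count filter, unless another setting is named. Of all genes tested, these settings called 1.76% with prednisolone, 0.0181% with spironolactone, and 5.17% between the drugs. The kinases that these phosphatases act on gave no call. Of 10 MAP kinase genes, 9 were tested and none passed the threshold in any comparison. At an unadjusted *P* under 0.05, 1 was lower with prednisolone, 1 was lower and 1 higher with spironolactone, and 2 were lower and 2 higher between the drugs. Among all genes, 7.07% were lower at that level with prednisolone, 4.07% with spironolactone, and 11.1% between the drugs. In either direction, the shares were 14.2%, 9.29%, and 22.5%. The smallest *P* against vehicle belonged to p38 delta (*Mapk13*) with prednisolone (log2 fold change -1.13 ± 0.44, adjusted *P* = 0.258) and to JNK1 (*Mapk8*) with spironolactone (-0.30 ± 0.12, 0.488). *Mapk13* was at -0.48 (0.682) without vehicle library 3, and it was called at -1.48 (0.0288) without vehicle library 1 and at -1.11 (0.00426) without a filter. None of the 7 MAP kinase kinases passed either. The smallest *P* was that of *Map2k5*, which activates ERK5, with prednisolone (0.25 ± 0.10, 0.279), and that of *Map2k4*, which activates JNK, with spironolactone (-0.16 ± 0.09, 0.642) and between the drugs (-0.28 ± 0.09, 0.0930).

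Among 13 tested MAP3 kinases, *Map3k8*, the kinase TPL2 that leads from Toll-like receptors to ERK, fell with prednisolone from 53.4 ± 2.62 to 35.0 ± 3.51 CPM (log2 fold change -0.61 ± 0.12, adjusted *P* = 0.0192). It was the only one of them called against vehicle, and with spironolactone the smallest *P* was that of *Map3k2* (-0.32 ± 0.11, 0.333). The call of *Map3k8* was lost without vehicle library 2 or prednisolone library 2 or 3 (-0.62 to -0.53, adjusted *P* from 0.0569 to 0.11). Between the drugs, *Map3k20*, a kinase of the ribosome stress response, was lower with spironolactone (-0.42 ± 0.10, 0.0316), a call lost without spironolactone library 2 or 3 or prednisolone library 1 or 2 (-0.41 to -0.36, 0.0926 to 0.135).

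Of 10 tested kinases that MAP kinases activate, *Rps6ka3*, which encodes the ERK-activated kinase RSK2, was lower with spironolactone than with prednisolone (-0.44 ± 0.10, adjusted *P* = 0.0201). The call was lost without spironolactone library 3 or any 1 prednisolone library (-0.46 to -0.37, 0.0597 to 0.094). Against vehicle none was called, and the smallest *P* was that of *Mapkapk3*, a target of p38, with prednisolone (-0.31 ± 0.10, 0.134; called at 0.0438 without vehicle library 1) and of *Rps6ka3* with spironolactone (-0.23 ± 0.10, 0.491).

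Other inhibitors of the pathway were called between the drugs. Of 6 tested Sprouty and Spred genes, which act upstream on RAS and RAF, 2 were lower with spironolactone than with prednisolone, *Spred1* (-0.42 ± 0.08, adjusted *P* = 0.0138) and *Spred2* (-0.62 ± 0.12, 0.0131). Among all genes, 2.79% were called lower between the drugs. The *Spred1* call was lost without spironolactone library 3 or prednisolone library 1 or 3 (-0.40 to -0.39, 0.0597 to 0.0676), and that of *Spred2* without spironolactone library 2 or 3 or prednisolone library 1 or 3 (-0.60 to -0.54, 0.0516 to 0.0676). Against vehicle, the smallest *P* was that of *Spred1* with prednisolone (0.34 ± 0.08, 0.0596; called in 4 of 10 alternatives, with adjusted *P* from 0.0131 to 0.0973) and of *Spry4* with spironolactone (0.94 ± 0.40, 0.491).

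Of 7 further phosphatases tested that act on MAP kinases, again 2 were lower between the drugs, *Dusp9* (-1.27 ± 0.33, adjusted *P* = 0.0411) and *Ptpn7* (-0.37 ± 0.08, 0.0253). The share of all genes called lower there was 2.79%. *Dusp9*, an ERK phosphatase that is close to *Dusp6*, was near 1 CPM in vehicle (1.19 ± 0.0319) and spironolactone (1.19 ± 0.404) and 2.88 ± 0.775 CPM in prednisolone libraries. Its call was lost without any 1 of the 6 treated libraries (-1.44 to -1.02, 0.0538 to 0.178), and that of *Ptpn7* without any 1 of them other than spironolactone library 3 (-0.38 to -0.31, 0.0658 to 0.0966). Against vehicle, *Dusp9* had the smallest *P* with prednisolone (1.28 ± 0.33, 0.0709; called in 3 of 10 alternatives, 0.00572 to 0.0828) and *Ppp2ca*, a catalytic subunit of protein phosphatase 2A, with spironolactone (-0.13 ± 0.09, 0.733). None of 9 tested atypical DUSP genes, small phosphatases that mostly do not act on MAP kinases, was called in any comparison. *Dusp18* had their smallest *P* with prednisolone (0.46 ± 0.17, 0.210) and between the drugs (-0.60 ± 0.17, 0.0514), where 6 of 10 alternatives called it (0.0109 to 0.0543), and *Dusp13* had it with spironolactone (1.02 ± 0.36, 0.366).

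*Dusp1* belongs to the genes that are transcribed at once after MAP kinase signals, and others of that kind were also lower. Of 16 immediate early genes, 4 fell with prednisolone, the transcription factor genes *Jun* (-1.06 ± 0.16, adjusted *P* = 0.00661), *Atf3* (-1.07 ± 0.15, 0.00455), and *Junb* (-0.68 ± 0.13, 0.0169), and *Zfp36* (-0.66 ± 0.14, 0.0337), whose product destabilizes cytokine mRNAs, and none rose. Among all genes, 0.758% were called lower in this comparison. *Jun* and *Atf3* kept this call in 9 of 9 fits without 1 library. *Junb* lost it without vehicle or prednisolone library 2 or 3 (-0.70 to -0.55, 0.0522 to 0.0954), and *Zfp36* without library 2 or 3 of any group (-0.69 to -0.51, 0.0534 to 0.162). The list median was -0.38 with prednisolone and -0.25 with spironolactone, where none passed and 8 were lower at an unadjusted *P* under 0.05, against 4.07% of all genes. *Fos* had the smallest *P* there (-0.50 ± 0.14, adjusted *P* = 0.232) and was called in 3 of 10 alternatives (0.00121 to 0.248). Between the drugs, *Jun* (0.84 ± 0.16, 0.0125) and *Atf3* (0.63 ± 0.15, 0.0352) were higher with spironolactone. These calls were lost for *Jun* without prednisolone library 2 (0.84, 0.0595), and for *Atf3* without vehicle library 2, any 1 spironolactone library, or prednisolone library 2 or 3 (0.46 to 0.70, 0.05 to 0.121). In edgeR on 2 groups, *Zfp36* with prednisolone (-0.66, adjusted *P* = 0.0733) and *Atf3* between the drugs (0.62, 0.0599) were not called. Immediate early genes are also known to respond to the digestion and sorting of tissue, which all 9 libraries went through, and that part was not tested.

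*Dusp1* is known as a gene that glucocorticoids raise, and 12 other genes known to be induced by them gave the following values. With prednisolone 1 fell, the clock gene *Per1* (-1.22 ± 0.17, adjusted *P* = 0.00436), which kept its call in 9 of 9 fits without 1 library. None rose, and 6 were lower at an unadjusted *P* under 0.05, against 7.07% of all genes. With spironolactone, 6 were likewise lower at that level, against 4.07% of all genes. *Fkbp5*, a co-chaperone of the glucocorticoid receptor, had the smallest *P* there (-0.67 ± 0.14, 0.128), and no gene of the list was called. *Fkbp5* was called by DESeq2 on all 9 libraries (0.00219) and on 2 groups (0.00608) and by edgeR without a filter (1.05e-06). *Fkbp5* had 63.8 ± 12.1 CPM in vehicle, 40.1 ± 5.75 CPM in spironolactone, and 56.1 ± 5.2 CPM in prednisolone libraries. Between the drugs, *Errfi1*, an inhibitor of the EGF receptor, was lower with spironolactone (-0.59 ± 0.13, 0.0179) and the transcription factor gene *Zbtb16* was higher (0.73 ± 0.19, 0.0377). *Errfi1* lost its call without spironolactone library 3 or prednisolone library 1 or 2 (-0.54 to -0.53, 0.0802 to 0.0886), and *Zbtb16* without any 1 treated library (0.59 to 0.83, 0.0659 to 0.143). The list median was -0.31 with prednisolone and -0.39 with spironolactone.

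Within the family, *Dusp1*, *Dusp2*, *Dusp5*, and *Dusp10* had similar profiles over the 9 libraries. Pearson's r of log2 CPM was 0.89 between *Dusp1* and *Dusp2* (Spearman's rho 0.82), 0.84 between *Dusp1* and *Dusp5* (0.72), and 0.79 between and 0.79 between *Dusp1* and *Dusp10* (0.78). It was 0.75 between *Dusp5* and *Dusp10*, 0.74 between *Dusp2* and *Dusp5*, and 0.68 between *Dusp2* and *Dusp10*. *Dusp3* and *Dusp4* went together as closely (r = 0.81, rho = 0.80), *Dusp5* and *Dusp16* had an r of 0.70, and *Dusp6* with *Dusp7* less closely (0.66, 0.62). *Dusp7* and *Dusp16* went in opposite directions (-0.62, -0.62). These values describe 9 libraries that share 3 treatments, so that the group means alone can produce them, and no test was made.

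Outside the family, the genes with profiles closest to *Dusp2* among 16608 others were *Gadd45b* (r = 0.988, rho = 0.983), *Junb* (0.984, 0.967), *Per1* (0.967, 0.967), *Bambi* (0.965, 0.950), and *Ccrl2* (0.959, 0.983). Those closest to *Dusp1* were *Ptp4a1* (0.961, 0.933), *Rnf2* (0.947, 0.867), *Rilpl2* (0.947, 0.933), *Tmem251* (0.944, 0.867), and *Ccrl2* (0.943, 0.833). *Dusp3* was closest to *Kpnb1* (0.968, 0.967), *Slc7a1* (0.965, 0.967), *Lrrc8b* (0.964, 0.967), *Mars1* (0.962, 0.967), and *Calu* (0.962, 0.950). *Dusp4* was closest to *Rmdn2* (0.971, 0.967), *Cnot6* (0.970, 0.950), *Arih1* (0.964, 0.950), *Eea1* (0.961, 0.950), and *Ppp4r3b* (0.959, 0.950). Each list is the top of many genes over 9 libraries.

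For 7 of the 10 genes, an annotated gene on the opposite strand overlaps the exons of the canonical transcript, among them long noncoding genes over *Dusp2*, *Dusp5*, *Dusp10*, and *Dusp3*. The strand setting of the counting is not given in the sources used here, so that reads of such a gene cannot be told apart from those of the phosphatase. *Dusp1*, *Dusp4*, and *Dusp7* have no such neighbor over these exons. All annotated exons of *Dusp1* cover 3324 bases, against 1990 in its canonical transcript. *Ergic1* and other genes on the opposite strand lie within its gene span, and their overlap with its further exons was not examined. On GRCm39, the canonical transcript of *Dusp1* is at chr17:26724564-26727493 on the minus strand and has 4 exons, and that of *Dusp2* is at chr2:127177957-127180296 on the plus strand with 4 exons.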

How the data were processed

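RNA-Seq of 9 libraries of sorted quadriceps CD45+CD11b+ cells, 3 per group, was analysed. The deposited values are raw counts per gene symbol that the authors obtained by aligning reads to mm39 (HISAT2 2.2.1 in the submitters' processing notes, which also name DESeq2 1.32.0) and counting them with HTSeq 0.11.3 after a Samtools sort. The annotation release and the strand setting are not given in the sources used here. Summary lines for reads that the counting assigned to no gene (17.2% to 21.8% of the sum over all lines) were left out.

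Of 50559 genes, 29739 had a count and 16618 passed filterByExpr (minimum count 10, minimum total 15). Depth was 31469815 to 32943512 counts on genes per library, TMM factors were 0.98 to 1.03, and the common biological coefficient of variation was 0.17. No library was a copy of another, with chi-square values of 18.7 to 61.4 for each degree of freedom between libraries of a group. Tests used the two-sided quasi-likelihood F test of edgeR 4.0.16 in R 4.3.3 (robust=TRUE, one model for the 9 libraries). *P* values were adjusted by Benjamini-Hochberg over the 16618 genes, and adjusted values under 0.05 were called. Log2 CPM for correlations used a prior count of 2. TPM used exon lengths of GENCODE genes on GRCm39 (40303 of 50559 symbols, at least 91% of the counts). For values by canonical length, only the lengths of the 10 phosphatases were replaced, and the total over all genes was kept. The 5 genes with the highest Pearson's r over 9 libraries were taken as most alike. Named genes were the 10 phosphatases and, of each other pathway list and comparison, up to 4 genes past the threshold by smallest adjusted *P* or, where none passed, the gene with the smallest *P*. The value of 1 gene that this rule names is not reported here.

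The members and all gene lists were chosen with earlier results of these data known. Alternatives were RLE or library totals, DESeq2 1.42.0 (all libraries or 2 groups), limma-voom (limma 3.58.1), edgeR on 2 groups, no filter, a minimum of 10 counts per library, robust=FALSE, the replicate number as a block, and leaving out each library. The scripts were tested on simulated data.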

Additional observations from a re-analysis of the deposited data

How the results depend on the processing

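Over the alternatives and the fits without 1 library, 522 of 570 fitted changes of the 10 phosphatases kept their direction and their side of the threshold, 15 lost a call, 17 gained one, and 16 changed sign. For spironolactone against vehicle, where edgeR called 0 of the 10 genes, DESeq2 called 3 with all 9 libraries and 2 (*Dusp1* and *Dusp5*) with 2 groups, and edgeR without a filter called 4 (*Dusp1*, *Dusp2*, *Dusp4*, and *Dusp5*), as it did for prednisolone against vehicle (4) and spironolactone against prednisolone (4). Of all genes it tested for spironolactone against vehicle, DESeq2 called 1.67% with all 9 libraries, and with 2 groups it called 239 genes. Without a filter, 1.78% of all genes were called for spironolactone against vehicle, 3.43% for prednisolone against vehicle, and 6.52% between the drugs. For prednisolone against vehicle, edgeR on 2 groups called 1 of the 10 genes (*Dusp2*) and 239 of all genes, with *Dusp1* at an adjusted *P* of 0.0563. The cause was not tested. Leaving out 1 library gave 0 to 2 calls for prednisolone against vehicle, 0 to 2 for spironolactone against prednisolone, and 0 to 0 for spironolactone against vehicle.

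With the replicate number as a block, 1 member (*Dusp2*) was called for prednisolone against vehicle, with *Dusp1* at an adjusted *P* of 0.0523. The block changed no other call of a member. Among all genes tested, more were called with the block than in the main fit. The counts were 336 against 293 for prednisolone against vehicle and 8 against 3 for spironolactone against vehicle. Between the drugs they were 1082 against 859. Deviations of libraries with the same number correlated at -0.04 to 0.15, and those of libraries with different numbers at -0.17 to 0.04. The highest values were those between vehicle and spironolactone libraries 3 (0.15) and 1 (0.12). The main fit took the numbers only as names of pools, and a batch shared by number was not tested beyond this block.

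Sign changes concerned fold changes that no fit called in that comparison. *Dusp10* went to -0.02 between the drugs with library totals. Without 1 library, *Dusp10* (-0.11 to 0.15), *Dusp5* (-0.38 to 0.05), *Dusp6* (-0.03 to 0.11), and *Dusp8* (-0.47 to 0.04) changed sign between the drugs, *Dusp7* (-0.14 to 0.05), *Dusp8* (-0.32 to 0.23), and *Dusp16* (-0.16 to 0.17) with prednisolone, and *Dusp6* (-0.13 to 0), *Dusp7* (-0.05 to 0.14), and *Dusp8* (-0.45 to 0.01) with spironolactone. Depth limits *Dusp4* and *Dusp8* most, which rest on as few as 63 counts in a library. For the pathway genes of other lists, the same alternatives were added after seeing the data, and no fitted change of a named gene changed sign.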
